A study of Macaca mulatta with 30 samples.

Results

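The antioxidant enzymes described here are 10 genes, found by their Ensembl rhesus gene symbol in 2 tables of read counts, one of fetal lung and one of fetal hippocampus. SOD1, SOD2 and SOD3 encode the superoxide dismutases, which turn superoxide into hydrogen peroxide. CAT (catalase), GPX1 and GPX3 encode enzymes that remove peroxides. TXNRD1 and GCLC serve the thioredoxin and glutathione systems, and NQO1 and HMOX1 degrade quinones and haem. Of the 10 genes, 8 had a row among the 30246 identifiers of the lung table, where SOD2 and GPX3 had none, and 9 had a row among the 32386 of the hippocampus table, where SOD2 had none. GPX1 was listed at 0 reads in all 15 hippocampus libraries, so 8 genes were tested in each tissue. In the tables SOD1 is ENSMMUG00000001711, SOD3 ENSMMUG00000002612, CAT ENSMMUG00000002429, GPX1 ENSMMUG00000012963, GPX3 ENSMMUG00000042643, TXNRD1 ENSMMUG00000012091, GCLC ENSMMUG00000008684, NQO1 ENSMMUG00000019684 and HMOX1 ENSMMUG00000007221.

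Whole tissue came from wild-type rhesus macaque fetuses whose mothers received a single intramuscular injection. The treatments were saline, the clinical drug (Celestone, betamethasone phosphate with betamethasone acetate, 0.25 mg/kg) and Beta-Ac (betamethasone acetate alone, 0.125 mg/kg). Lung was taken from 3 animals in each of 5 groups: controls, 4 h and 5 d after the clinical drug, and 6 h and 5 d after Beta-Ac, with an age label of gestational day 124 to 130. Hippocampus was taken from 5 animals in each of 3 groups: controls given 1 mL saline, and both drugs at 5 d, delivered at day 130 to 136. Dose differed between the drugs at every time, and the early samples also differed in time, so a difference between drugs cannot be told apart from these. In the hippocampus the library names and the treatment and dose fields name the drugs the opposite way round. The groups follow the library names, with which the lung labels of the 6 treated animals sampled in both tissues also go. Under the other reading every statement on a drug in hippocampus would pass to the other drug. In hippocampus, sequencing run went partly with treatment. Control animals 1 and 2 were sequenced in run0024 and control animal 4 in run0162, runs that held no treated animal. Control animal 3 and animals 1 to 3 of each drug were in run1630. Control animal 5 and animals 4 and 5 of each drug were in run0164. A difference from control there cannot be fully told apart from a difference between runs. The p-values measure the spread between these animals.

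Superoxide dismutases, catalase, peroxidases and the enzymes that refill glutathione and thioredoxin act in sequence: superoxide becomes hydrogen peroxide, and peroxide becomes water. Activity of these enzymes is known to rise in the lung late in gestation, ahead of the first breath of air. Several of the genes, NQO1, GCLC, TXNRD1 and HMOX1 among them, are known targets of NRF2 (NFE2L2), a transcription factor that KEAP1 holds back and that competes with BACH1.

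The depth on genes was 14.1 to 45 M reads a library in lung and 18.3 to 29.3 M in hippocampus. Levels are given as CPM, reads scaled to the library size after TMM normalization. The lung epithelial marker list (7 of 8 genes matched) summed to 7279 to 18749 CPM in lung libraries, and the hippocampal neuron list (8 of 8 matched) to 2465 to 4142 CPM in hippocampus libraries. In controls the lung epithelial sum was 7279 to 10592, and in the 4 h clinical-drug group it was 12774 to 18749. Its part in the lung results was not tested, and in whole tissue fewer cells of a type and less RNA per cell cannot be told apart. FKBP5, a glucocorticoid receptor target, averaged 5.61 CPM in control lung, 173 in the 4 h clinical-drug group and 52 in the 6 h Beta-Ac group. The hippocampus of control animal 5 stood apart. Its choroid plexus list (5 of 8 genes matched, 0 of them without reads) summed to 1162 CPM against 12.5 to 32.1 in the other 14 libraries, and its meningeal list (6 of 7 matched) to 1004 against 59.1 to 558.

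In lung, none of the antioxidant enzymes was called in any comparison with control. A gene counted as called when its fold change reached 1.5, its p was below 0.05 and its adjusted p below 0.1. At 4 h after the clinical drug edgeR called 0 of 8, where 7.4% of all 17644 genes tested were called. At 6 h after Beta-Ac it called 0 of 8, against 0.442% of all genes. At 5 d it called 0 of 8 after the clinical drug, against 0% of all genes, and 0 of 8 after Beta-Ac, against 0.00567%. At an unadjusted p under 0.05 the count was also 0 in each of the 4 comparisons, against 3301, 2021, 775 and 1133 of all 17644 genes. DESeq2 called 0 of the 8 in each, against 1297, 247, 16 and 40 over all genes. Over all genes, DESeq2 called 16 genes at 5 d after the clinical drug, where edgeR called 0 with 775 at an unadjusted p under 0.05. The paper, with edgeR and the same thresholds, reported more lung genes in each of these 4 comparisons than were called here, many more at 5 d. The reason was not tested, and the low counts at 5 d do not show an unchanged lung. The smallest adjusted p (edgeR, Storey) among the 8 genes was 0.215 at 4 h after the clinical drug. The median log2 fold change of the 8 enzymes was 0.07, 0.00, 0.05 and 0.09 in these comparisons, taken in the same order, and that of all genes 0.02, 0.02, 0.00 and 0.01.

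**Figure D1:**
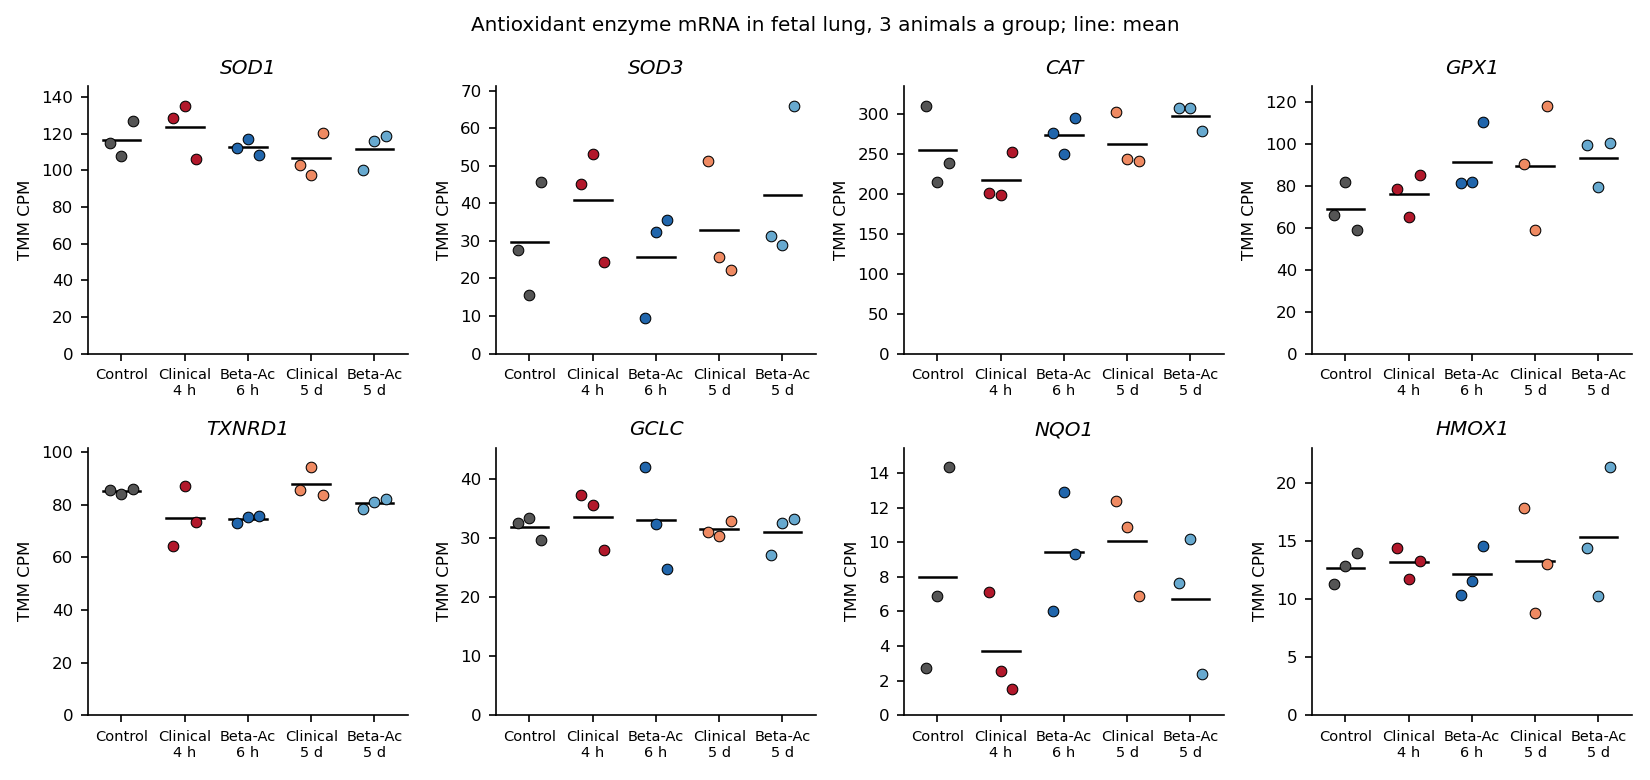
TMM CPM (linear axis from 0) of the 8 enzymes with a lung row, by group. Points are single animals (3 a group) and the line is the group mean. NQO1 ranged from 1.5 to 14.4 CPM over the 15 libraries, whereas TXNRD1 stayed between 64.2 and 94.3 CPM.

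SOD1, the cytosolic superoxide dismutase, kept a narrow range in lung, from 97.4 to 135 CPM over the 15 libraries. Controls read 115, 108 and 127 CPM, the 4 h clinical-drug group 129, 135 and 106, and the 5 d clinical-drug group 103, 97.4 and 120.1. The groups overlapped throughout. The largest difference of SOD1 from control was a log2 fold change of -0.13 (SE 0.11) at 5 d after the clinical drug. SOD3, the secreted form, varied widely, from 9.46 to 66 CPM. Controls alone ran from 15.7 to 45.7 CPM. Both the lowest value, at 6 h after Beta-Ac, and the highest, at 5 d after Beta-Ac, came from groups whose other animals lay between 29 and 35.6 CPM. Its differences from control ran from -0.20 (SE 0.51) at 6 h after Beta-Ac to 0.50 (SE 0.51) at 5 d after Beta-Ac.

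CAT averaged 255 ± 49.5 CPM (SD, n = 3) in control lung. The values were 310.2, 215 and 239 CPM in controls, 200.4, 199 and 253 in the 4 h clinical-drug group and 276, 249.7 and 295 in the 6 h Beta-Ac group. The 4 h group overlapped both others. Its log2 difference was -0.23 (SE 0.14) from control and -0.33 (SE 0.14) from 6 h after Beta-Ac, and the latter had an edgeR adjusted p of 0.124 and was not called.

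GPX1, the main intracellular glutathione peroxidase, read 66, 81.9 and 59.1 CPM in controls and 99.4, 79.6 and 100.5 CPM at 5 d after Beta-Ac. The groups overlapped in 1 animal on each side. The 4 differences from control were all positive and uncalled, from 0.15 (SE 0.21) at 4 h after the clinical drug to 0.43 (SE 0.21) at 5 d after Beta-Ac (edgeR adjusted p = 0.748). The gene nearest to GPX1 across the 15 lung libraries was ALAS2, the haem synthesis enzyme of red cell precursors (Pearson r = 0.90 on log2 CPM, a description over libraries of different groups and depths). The erythroid list (6 of 12 genes matched, 0 of them without reads) summed to 24.3 to 91.5 CPM in controls, 29 to 47.8 in the 4 h and 20.8 to 95.2 in the 5 d clinical-drug group, and 43.9 to 252 in the 6 h and 59.9 to 74.7 in the 5 d Beta-Ac group. The part of erythroid cells in the GPX1 levels was not tested.

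TXNRD1, the cytosolic thioredoxin reductase, differed little but evenly. Controls read 85.8, 84.1 and 86.2 CPM and the 6 h Beta-Ac animals 73.2, 75.3 and 75.7. All 3 Beta-Ac animals lay below all 3 controls, with a log2 fold change of -0.19 (SE 0.10, 95% interval -0.40 to 0.01, edgeR adjusted p = 0.352). At 4 h after the clinical drug the values were 64.2, 87.2 and 73.4 CPM, a difference of -0.19 (SE 0.10) that overlapped controls. At 5 d after Beta-Ac they were 78.5, 81.3 and 82.3 CPM, again all below controls, with a log2 fold change of -0.08 (SE 0.10). Both comparisons used the same 3 controls. The neutrophil list (6 of 9 genes matched, 0 of them without reads) summed to 11.5 to 16.6 CPM in controls, 23.8 to 31.9 in the 6 h Beta-Ac group and 17 to 56.2 in the 5 d Beta-Ac group, with no overlap with controls in either. The lung epithelial list summed to 9594 to 13978 CPM in the 6 h Beta-Ac group, which overlapped controls, and to 11071 to 12649 in the 5 d group, which did not. Over the 15 lung libraries TXNRD1 had r = -0.74 with the epithelial list and r = -0.68 with the neutrophil list, given as a description. Other lists were as close, with r = -0.72 for the oligodendrocyte list, or nearly so, with r = -0.56 for the macrophage list. The largest positive r was 0.41, with the list of smooth muscle and pericytes. The part of these cells in the TXNRD1 levels was not tested. TXNRD1 was the 1 of 8 enzymes whose groups did not overlap at 6 h after Beta-Ac and the 1 of 8 at 5 d after Beta-Ac, where 16.3% and 12.1% of all genes tested did not overlap. At 4 h and 5 d after the clinical drug 0 of 8 were without overlap, against 21.3% and 12.3% of all genes.

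GCLC, the catalytic subunit of the enzyme that starts glutathione synthesis, stayed between 24.7 and 41.9 CPM, and HMOX1, which opens haem, between 8.83 and 21.4 CPM. Control lungs read 32.5, 33.3 and 29.6 CPM for GCLC and 11.3, 12.9 and 14 CPM for HMOX1. The lowest and the highest GCLC value came from the same group, 6 h after Beta-Ac (41.9, 32.3 and 24.7 CPM), and the highest HMOX1 value from 5 d after Beta-Ac (14.5, 10.3 and 21.4 CPM). Their differences from control lay between -0.04 and 0.08 for GCLC and between -0.06 and 0.27 for HMOX1. None of the 8 reached an unadjusted p under 0.05.

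NQO1, the quinone reductase, had the widest spread in lung. The 4 h animals read 7.11, 2.54 and 1.5 CPM and controls 2.74, 6.91 and 14.4. The 6 h Beta-Ac animals read 6.02, 12.9 and 9.36, the 5 d animals 12.4, 10.9 and 6.91 after the clinical drug and 7.66, 10.2 and 2.36 after Beta-Ac. The 4 h group held the lowest value but overlapped each other group. Its log2 difference was -1.05 (SE 0.64) from control, with an edgeR adjusted p of 0.291. It was -1.29 (SE 0.64, adjusted p = 0.170) from 6 h after Beta-Ac and -1.38 (SE 0.64, adjusted p = 0.133) from 5 d after the clinical drug. None was called, but each turned on 1 library. Without animal 1 of the 4 h group, the deepest of the lung libraries at 45 M reads, NQO1 was called in all 3, with log2 fold changes of -2.02, -2.24 and -2.34 (edgeR adjusted p = 0.0956, 0.0503 and 0.0329). Without control animal 3, the highest control, the difference from control was -0.31 (adjusted p = 0.685).

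Between the drugs and times, edgeR also called 0 of 8 in lung in each of the 4 remaining comparisons. The share of all genes called was 6.74% between the early groups, 0% between the drugs at 5 d, 10.4% between 4 h and 5 d after the clinical drug and 0.261% between 6 h and 5 d after Beta-Ac. DESeq2 called 0 in each as well, against 1127, 8, 1694 and 185 over all genes. At an unadjusted p under 0.05 the counts were 1 (CAT), 0, 2 (TXNRD1 and NQO1) and 0, against 3646, 556, 4047 and 1396 of all 17644 genes. TXNRD1 was lower at 4 h than at 5 d after the clinical drug by a log2 fold change of -0.23 (SE 0.10, edgeR adjusted p = 0.1004). For SOD1, CAT, TXNRD1 and GCLC the 95% intervals between the drugs at 5 d reached no further than -0.48 or 0.37, while for SOD3 and NQO1 they reached -1.44 and 1.92.

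**Figure D2:**
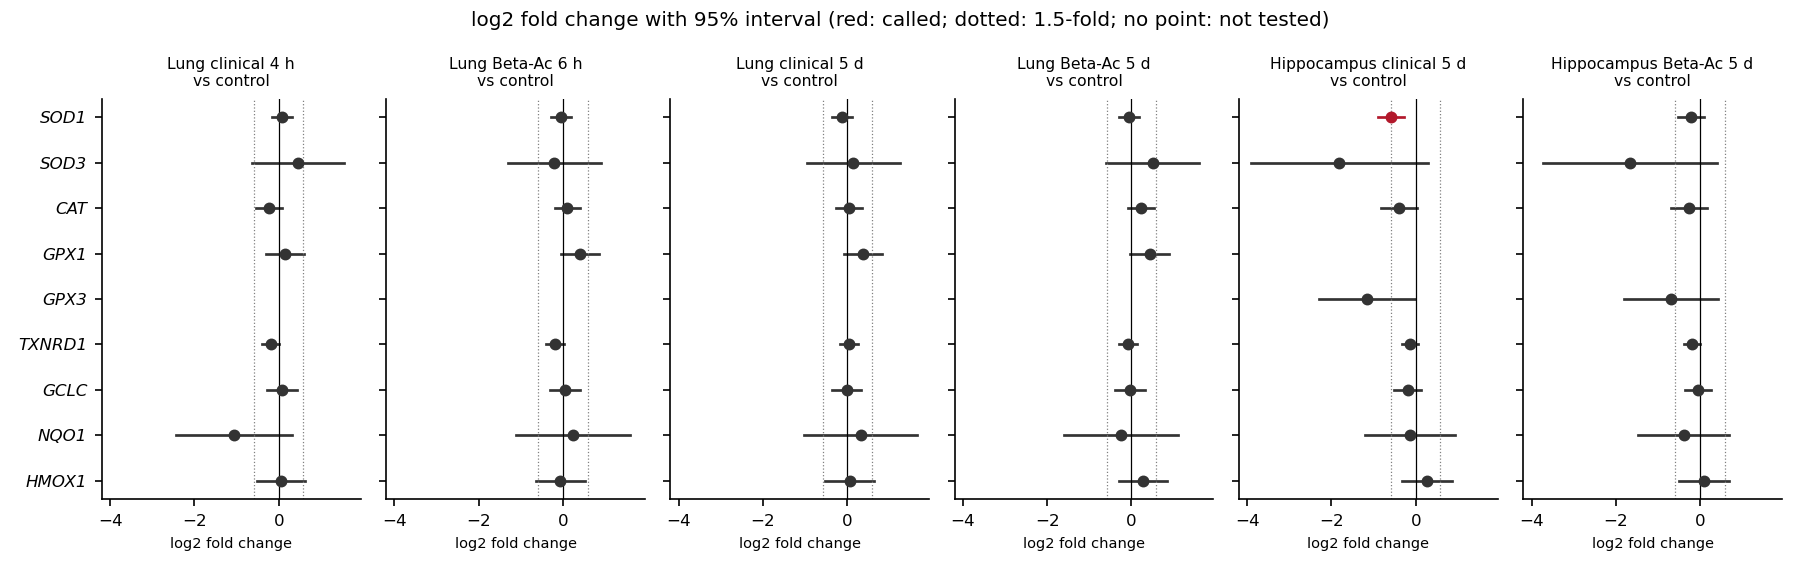
log2 fold change from control (x axis) of each enzyme in the 6 comparisons with control. Points are estimates, bars 95% intervals, dotted lines a 1.5-fold change, and red marks a called gene. SOD1 after the clinical drug in hippocampus (-0.60) is the 1 point in red, and the longest bars belong to SOD3 in hippocampus.

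In hippocampus, SOD1 was lower after the clinical drug than in controls. The 5 treated animals read 91.4, 88.3, 94.8, 96.3 and 104 CPM and the 5 controls 123, 136, 159, 154 and 146. Every treated animal lay below every control. The log2 fold change was -0.60 (SE 0.15, 95% interval -0.91 to -0.29), with a Benjamini-Hochberg adjusted p of 0.0211 in edgeR. The median log2 fold change of the 8 enzymes was -0.30 (-0.12 without control animal 5, -0.73 with sequencing run as a block and -0.21 with both changes), that of all genes -0.02. SOD1 was the 1 of 8 enzymes called, where 7.86% of all 17390 genes tested were called, and the 1 of 8 whose groups did not overlap, where 15.1% of all genes did not. The difference was 1.51-fold, just past the threshold of 1.5. The call was lost on the fold alone under RLE scaling and DESeq2 (both -0.58, adjusted p = 0.024 and 0.00381) and without control animal 3 or 4 or treated animal 1 or 2 (-0.58 to -0.56, adjusted p = 0.0348 to 0.0478). Without control animal 5 the difference was -0.59 (adjusted p = 0.0279). With sequencing run as a block it was -0.67 (adjusted p = 0.0571), and with both changes -0.89 (adjusted p = 0.299), which ended the call. Control animal 5 was the 1 control in 1 of the 2 runs that held treated animals, and control animal 3 the 1 control in the other. Control animals 1, 2 and 4 shared no run with a treated animal. The difference with run as a block therefore rests on control animals 3 and 5, and with both changes on control animal 3 alone.

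**Figure D3:**
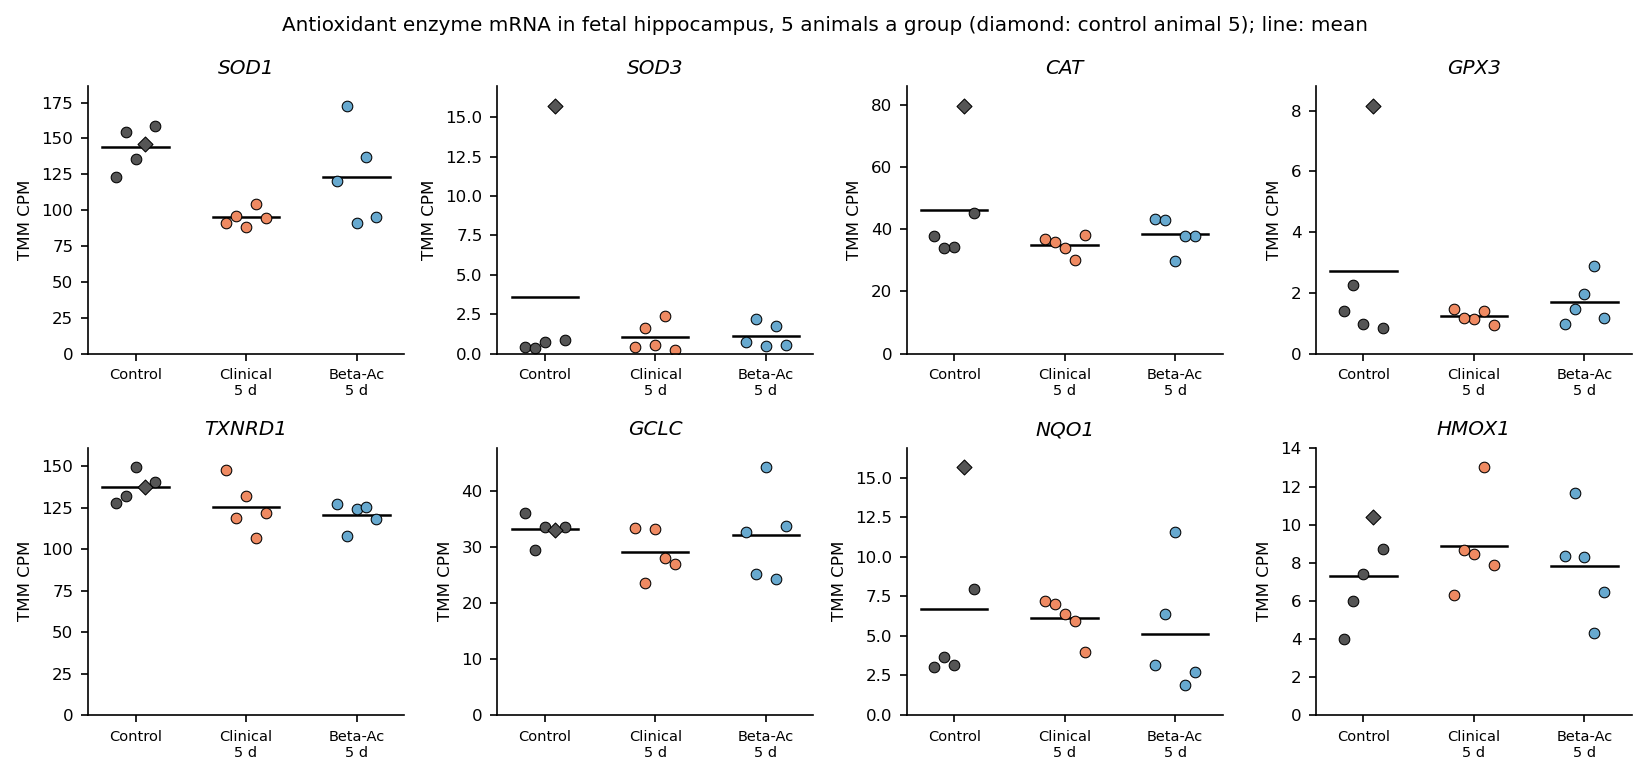
TMM CPM (linear axis from 0) of the 8 enzymes with reads in hippocampus, by group. Points are single animals (5 a group), the line is the group mean and the diamond is control animal 5. The 5 clinical-drug animals sit at 88.3 to 104 CPM for SOD1, below all controls, and control animal 5 stands alone for SOD3 at 15.7 CPM.

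After Beta-Ac the SOD1 values were 120.3, 90.8, 94.9, 173 and 137 CPM. Animals 2 and 3 lay in the range of the clinical drug and animal 4 above all controls. Animals 1 to 3 were in run1630 and animals 4 and 5, with the higher values, in run0164. The part of the run in this split was not tested. The difference from control was -0.22 (SE 0.15, adjusted p = 0.557) and was not called. The direct difference between the drugs was -0.38 (SE 0.15, 95% interval -0.69 to -0.07, edgeR adjusted p = 0.287), so the drugs were not shown to differ in SOD1. The hippocampal neuron list summed to 2711 to 3888 CPM in controls, 3596 to 4142 after the clinical drug and 2465 to 3373 after Beta-Ac. The astrocyte list (6 of 6 matched) summed to 2444 to 3714, 3488 to 4788 and 2471 to 4399 CPM in the same order. Their part in the SOD1 difference was not tested. The 3 genes nearest to SOD1 over the 15 hippocampus libraries were EIF3B (r = 0.98), PRPF19 (r = 0.96) and DRAP1 (r = 0.96), given as a description over libraries that differ in group, run and depth.

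For SOD3, GPX3 and CAT, control animal 5 stood far above the other hippocampi. SOD3 read 15.7 CPM there, 0.36 to 0.84 in the other 4 controls and 0.24 to 2.37 in the treated animals. The treated animals split by sequencing run, with SOD3 at 1.62 to 2.37 CPM in run0164, the run of control animal 5, and 0.24 to 0.72 in run1630. GPX3, a secreted glutathione peroxidase, read 8.16 CPM there and 0.84 to 2.88 elsewhere. CAT read 79.8 CPM there and 29.9 to 45.2 elsewhere. With all animals the differences after the clinical drug were -1.82 (SE 0.99) for SOD3, -1.16 (SE 0.54) for GPX3 and -0.40 (SE 0.20) for CAT, none called (edgeR adjusted p = 0.227, 0.158 and 0.190). Without control animal 5 they were 0.79, -0.17 and -0.11, and SOD3 turned in direction. In that fit run0164 held treated animals but no control. After Beta-Ac the same genes went from -1.66, -0.69 and -0.27 to 0.95, 0.31 and 0.02. With sequencing run as a block and all animals kept, SOD3 (-2.36, adjusted p = 0.0531) and CAT (-0.80, adjusted p = 0.057) were called after the clinical drug, and GPX3 was not (-1.46). With the block and without control animal 5 none was called, at -0.97 for SOD3, -0.36 for CAT and 0.36 for GPX3 after the clinical drug and at -0.67, -0.23 and 0.81 after Beta-Ac. In control animal 5 the endothelial list summed to 342 CPM, against 118 to 226 in the other 14 libraries. The list of smooth muscle and pericytes summed to 294 CPM there, against 97.3 to 148. The part of choroid plexus, meningeal and vascular RNA in these levels was not tested. The genes nearest to CAT were SPAG17 (r = 0.94) and CFAP44 (r = 0.93), which encode parts of motile cilia. Both r values include control animal 5, far above the other hippocampi for CAT, and are given as a description.

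TXNRD1 read 128, 149, 141, 132 and 137 CPM in controls and 127, 124, 118, 108 and 125 after Beta-Ac. All 5 treated animals lay below all 5 controls, with the nearest pair almost equal. The log2 fold change was -0.19 (SE 0.09, edgeR adjusted p = 0.404). TXNRD1 was the 1 of 8 enzymes at an unadjusted p under 0.05, against 2133 of all 17390 genes. Of the 8, 0 were called after Beta-Ac by edgeR, against 0% of all genes, and 0 by DESeq2, against 149 over all genes. The groups of 1 enzyme did not overlap, against 1.33% of all genes. The median log2 fold change of the 8 after Beta-Ac was -0.25, that of all genes -0.01. Without control animal 5 the median of the 8 turned to 0.11, and it was -0.49 with sequencing run as a block and -0.25 with both changes. After the clinical drug TXNRD1 read 148, 132, 122, 119 and 107 CPM, a difference of -0.13 (SE 0.09) with overlap. Between the drugs edgeR called 0 of 8, against 0% of all genes, and DESeq2 0 of 8, against 186 over all genes. SOD1 was the 1 enzyme at an unadjusted p under 0.05 in edgeR, against 2346 of all 17390 genes. The 95% intervals between the drugs ran from -0.13 to 0.24 for TXNRD1 and from -0.46 to 0.18 for GCLC, and from -2.28 to 1.97 for SOD3.

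GCLC lay between 23.5 and 44.2 CPM in hippocampus and HMOX1 between 4.0 and 13 CPM, with no call and no separation of groups. GCLC read 36, 33.6, 33.4, 29.5 and 33 CPM in controls, 33.4, 33.1, 27, 23.5 and 28.1 after the clinical drug and 32.7, 44.2, 33.8, 25.2 and 24.3 after Beta-Ac. The 3 lowest GCLC values came from clinical animal 4 and Beta-Ac animals 4 and 5, all of run0164. In the same run clinical animal 5 read 28.1 and control animal 5 33 CPM. HMOX1 reached its highest value in clinical animal 5. NQO1 read 3.05, 3.19, 7.98, 3.69 and 15.6 CPM in controls, 7.22, 6.38, 3.97, 7.04 and 5.94 after the clinical drug and 3.18, 11.6, 2.69, 6.38 and 1.87 after Beta-Ac. The Beta-Ac group spanned the clinical group at both ends. GPX1, at 0 reads, could not be compared. A count of 0 allows 3 reads, which is 0.102 to 0.155 CPM in these libraries by counting error alone, while the same identifier had 29459 reads over the lung libraries. The 2 tables shared 20572 identifiers and so were counted on different gene lists.

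Set side by side without a test, since the tables were counted and scaled separately, control lung and hippocampus read 117 and 144 CPM for SOD1, 255 and 46.2 for CAT, 85.4 and 137 for TXNRD1, 31.8 and 33.1 for GCLC, 8.0 and 6.71 for NQO1 and 12.7 and 7.31 for HMOX1. SOD3 read 29.7 CPM in control lung and 0.36 to 0.84 in the hippocampus of control animals 1 to 4. The enzymes also differed in how far animals of the same group spread. The within-group SD of log2 CPM was 0.93 and 0.86 for NQO1 in lung and hippocampus and 0.76 and 1.52 for SOD3, above the medians over all genes tested (0.25 and 0.29). It was 0.11 and 0.13 for TXNRD1 and 0.14 and 0.24 for SOD1, below those medians.

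The genes most like each enzyme over the 15 libraries of a tissue, by Pearson's r on log2 CPM, were as follows. In lung they were ISCA1 for SOD1 (r = 0.88), DPP6 for SOD3 (r = 0.80), MCOLN2 for CAT (r = 0.88), MICALL2 for TXNRD1 (r = 0.86), TFPT for GCLC (r = 0.83), HLCS for NQO1 (r = 0.86) and LZTR1 for HMOX1 (r = 0.77). In hippocampus they were LRRC43 for SOD3 (r = 0.94), RIPOR3 for GPX3 (r = 0.91), UST for TXNRD1 (r = 0.90), LRRC15 for GCLC (r = 0.86), SLFN13 for NQO1 (r = 0.85) and C20H16orf96 for HMOX1 (r = 0.91). The libraries behind these values share groups and, in hippocampus, sequencing runs, and they are given as a description.

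For 9 animals both tissues were sequenced, and the NQO1 levels of lung and hippocampus ran in a like order. Control animal 1 and Beta-Ac animal 3 were lowest in both, with 2.74 and 2.36 CPM in lung and 3.05 and 2.69 in hippocampus. Control animal 3 read 14.4 and 7.98, Beta-Ac animal 2 read 10.2 and 11.6, and clinical animal 1 read 12.4 and 7.22. Over the 9 animals Pearson's r was 0.78 on log2 CPM (exact permutation p = 0.0111) and Spearman's rho 0.83 (exact permutation p = 0.00827), both two-sided. With Benjamini-Hochberg adjustment over the 7 enzymes compared these became 0.0774 and 0.0579, short of 0.05. Without the 2 animals farthest from the median in lung r was 0.79, and after group means were removed it was 0.78. Of 13058 genes tested in both tissues 2.61% had a higher r, and the median r over these genes was 0.12. For the other 6 enzymes r ran from -0.15 to 0.33.

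**Figure D4:**
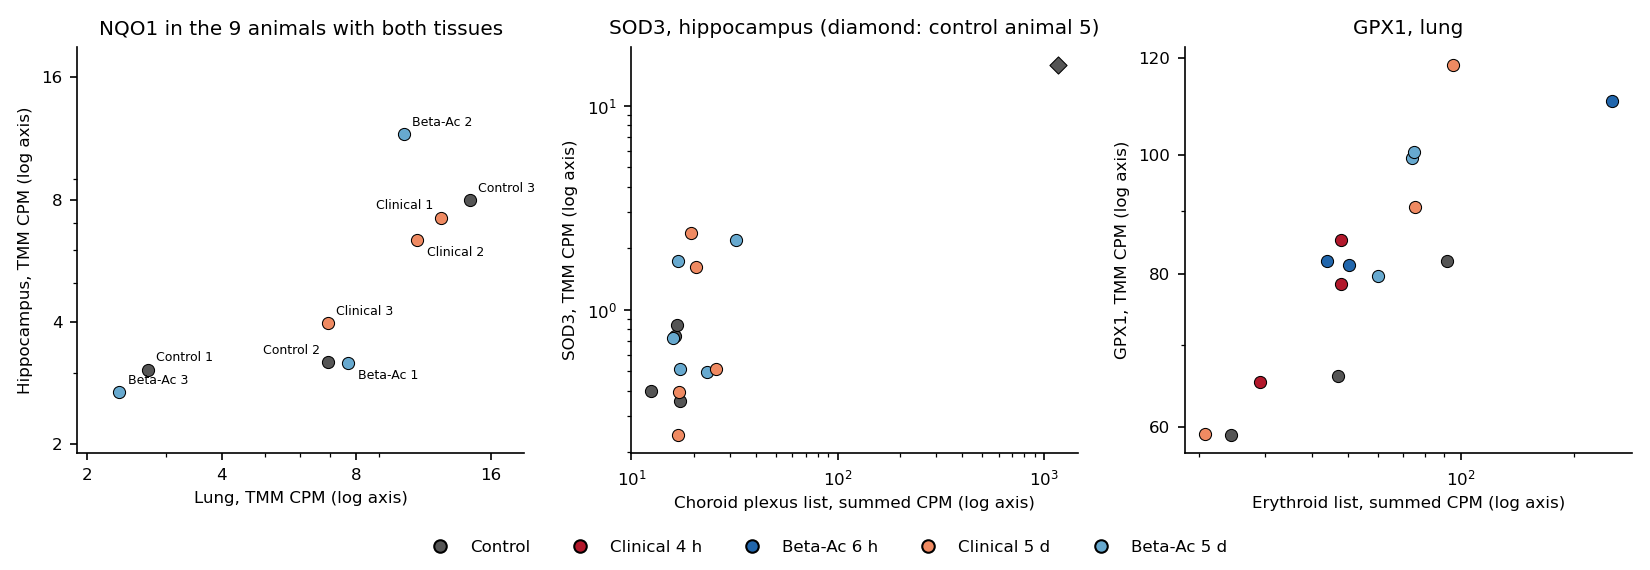
Left, NQO1 in lung (x axis) and hippocampus (y axis) of the 9 animals with both tissues. Middle, SOD3 against the summed choroid plexus list in 15 hippocampus libraries. Right, GPX1 against the summed erythroid list in 15 lung libraries. All axes are TMM CPM on a log scale and colours are groups. NQO1 runs from 2.36 to 14.4 CPM in lung with hippocampus values that rise alongside, and the diamond, control animal 5, stands alone at 1162 CPM of choroid plexus genes.

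Beyond these enzymes, 124 genes in 7 lists of the same pathways were looked up, of which 93 were tested in lung and 99 in hippocampus. At 4 h after the clinical drug 6 rose and 2 fell in lung, 8 of 93, beside 7.4% of all genes. The thioredoxin list (16 tested) held TXNIP, an inhibitor of thioredoxin, at 5320 ± 869 against 2334 ± 313 CPM (SD, n = 3 each; log2 fold change 1.19) and SESN1, a sestrin (0.82). The list of transcriptional control (12 tested) held BACH1, a repressor of NRF2 targets, at 234 ± 63.1 against 103 ± 2.77 CPM (1.18), FOXO1 (1.23) and FOXO3 (1.87). Among oxidant-producing enzymes (14 tested) MAOA, monoamine oxidase A, rose from 77.3 ± 15.7 to 240 ± 20.3 CPM (1.63) and CYBB, the NADPH oxidase subunit of phagocytes, fell (-0.91). SLC40A1, the iron exporter, fell (-0.71) in the list of haem, iron and metals (11 tested). The glutathione (17 tested), NADPH supply (13 tested) and quinone and aldehyde lists (10 tested) held no call. TXNIP lost its call without 4 h animal 1, control animal 1 or control animal 3, and CYBB under 7 of 13 alternatives. Both drugs were compared with the same 3 control lungs.

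At 6 h after Beta-Ac MAOA was the 1 gene of 93 called, at 182 ± 48.5 CPM (1.24). At 5 d 0 of 93 were called after either drug by edgeR or DESeq2, with 3 and 4 at an unadjusted p under 0.05 in edgeR (775 and 1133 of all 17644 genes). DESeq2 called 4 of 93 at 6 h after Beta-Ac, beside 247 over all genes. Between the 2 early groups 5 of the 93 genes were called, beside 6.74% of all genes: SESN1 (0.83), BACH1 (0.99), MTHFD2 (0.63) and PON2 (0.61) were higher at 4 h after the clinical drug and ALDH1A1 (-0.88) was lower. MTHFD2, PON2 and ALDH1A1 lost their call without 1 or more single animals. Between 4 h and 5 d after the clinical drug 8 were higher and 5 lower at 4 h, 13 of 93, beside 10.4% of all genes. Those with large fold changes included XDH (2.51), MAOA (1.68), FOXO3 (1.48), BACH1 (1.21), NCF1 (-1.14), CYBB (-1.10) and FOXO1 (0.99). XDH, at 0.98 CPM on average at 4 h and 0.16 CPM at 5 d, lost its call under 7 of 13 alternatives. Between 6 h and 5 d after Beta-Ac only MAOA was called (1.27). GCLM, KEAP1 and NFE2L2 were called in no comparison with control in either tissue. GSR and TXN were not matched in lung.

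**Figure D5:**
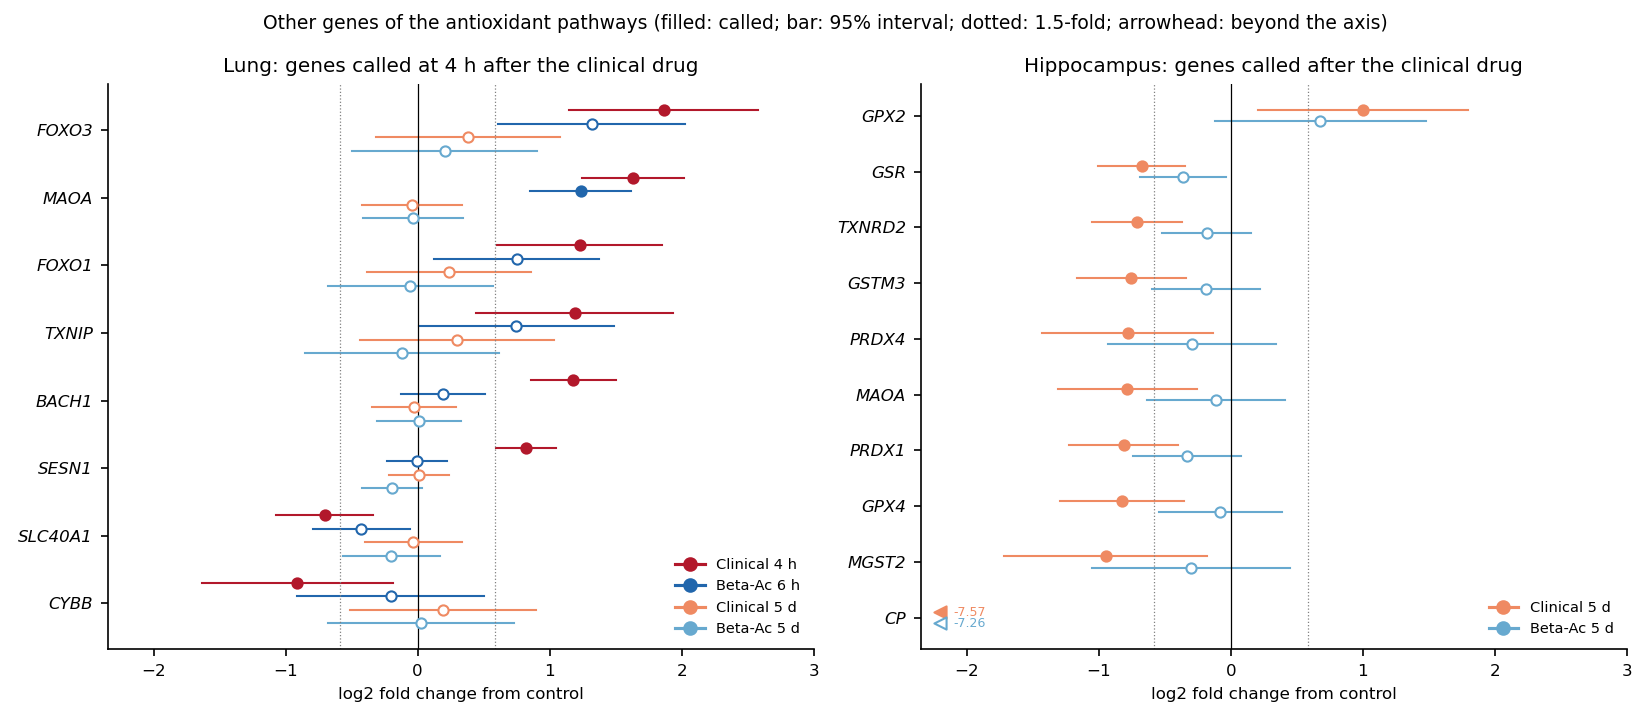
log2 fold change from control (x axis) of the pathway-list genes called at 4 h after the clinical drug in lung (left, 8 genes) and after the clinical drug in hippocampus (right, 10 genes), with the other groups of the tissue beside them. Filled points are called, bars are 95% intervals and arrowheads lie beyond the axis. In lung no 5 d point is filled, and in hippocampus 9 of the 10 genes lie below 0.

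In hippocampus the clinical drug called 10 of 99 pathway genes, 9 lower and 1 higher, beside 7.86% of all genes. In the glutathione list (20 tested) GSR, glutathione reductase, fell from 20.4 ± 2.01 to 12.8 ± 0.79 CPM (SD, n = 5 each; -0.68), GPX4, the peroxidase of membrane lipid peroxides, fell from 72.1 ± 4.59 to 40.7 ± 7.49 CPM (-0.83) and GSTM3, a glutathione transferase, fell too (-0.755). In the thioredoxin list (18 tested) TXNRD2, the mitochondrial reductase, fell from 22.5 ± 0.61 to 13.8 ± 2.01 CPM (-0.71) and PRDX1, a peroxiredoxin, fell as well (-0.81). In each of these 5 genes every treated animal lay below every control. The genes were picked by their calls, so this adds no separate support. Over all genes 15.1% had groups without overlap. The calls of the 5 genes held without control animal 5 but not with sequencing run as a block on top of that. GPX2 rose by 1.00 at 0.54 CPM. MGST2 (-0.95), PRDX4 (-0.78) and CP (-7.57), ceruloplasmin, lost their call without control animal 5, where CP moved to -0.47, and GPX2 lost it too (1.02). MAOA fell (-0.79, and -0.95 without control animal 5), and lost its call without control animal 4 or clinical animal 1. With sequencing run as a block it was -0.34 (edgeR adjusted p = 0.408) and was not called. No gene was called in the lists of transcriptional control (15 tested), NADPH supply (13 tested) or quinones and aldehydes (10 tested). After Beta-Ac 0 of 99 were called by edgeR, against 0% of all genes, and 0 by DESeq2, against 149 over all genes. In edgeR 5 had an unadjusted p under 0.05 (2133 of all 17390 genes), with GSR at -0.36 (SE 0.16, adjusted p = 0.364). Between the drugs edgeR called 0 of 99, with 18 at an unadjusted p under 0.05 (2346 of all 17390 genes). DESeq2 called 2 there, against 186 over all genes. The 5 control hippocampi served both drugs in these counts, and control animals 1, 2 and 4 shared no sequencing run with a treated animal.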

How the data were processed

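RNA-seq of 15 lung and 15 hippocampus libraries was used. The authors deposited raw read counts per Ensembl gene. Per the labels, lung reads were processed with Bowtie 1.2.1.1 and featureCounts 1.5.1, whereas the paper names Bowtie 2 and genome build MMUL1.0, and hippocampus reads (poly(A) RNA) with Bowtie2 and featureCounts, versions not given. Genes were tested with edgeR 4.0.16 in R 4.3.3 (TMM, quasi-likelihood F-test, a single fit per tissue) if 7 reads or more were present in 3 libraries (lung) or 5 libraries (hippocampus). Adjustment was Storey's in lung and Benjamini-Hochberg in hippocampus, and fold changes used a prior count of 0.125 and log2 CPM one of 2. DESeq2 1.42.0 was used for alternatives, and limma 3.58.1 was loaded but no fit was made with it. Symbols came from a table of Ensembl identifiers. The procedure was tested on simulated counts. Depth was 14.1 to 45 M reads (lung) and 18.3 to 29.3 M (hippocampus). The p-values measure the spread between animals. For low genes that spread includes counting error, as for GPX3 at 22 to 30 reads in the clinical-drug hippocampi.

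The enzymes and gene lists were chosen with earlier results of these data known. All 10 enzymes, at most 8 called pathway genes per comparison, GCLM, GSR, TXN, KEAP1, NFE2L2 and each enzyme's nearest genes were named. TXNRD2 in hippocampus goes past that limit and was named after its values were seen. The result of 1 gene within that limit is not reported here. Called genes beyond the limit enter the counts only. No sequences or positions were used, since no genome of the build was given. Replicate numbers follow accession order.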

Additional observations from a re-analysis of the deposited data

Results flagged for a closer look

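In the hippocampus of control animal 5 SOD3 read 15.7 CPM, CAT 79.8 CPM and GPX3 8.16 CPM, each far from the other 4 controls by Dixon's criterion, which chance meets in about 1 of 20 groups. The 3 values come from a single library, in which the choroid plexus list also summed to 1162 CPM. For CAT at 5 d after Beta-Ac the 3 lung values all lay above the control mean and the 5 hippocampus values all below it, a gap of 0.44 in log2 CPM. This difference between tissues was not tested, and the hippocampus control mean includes control animal 5 (46.2 CPM with it and 37.8 CPM without).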

How the results depend on the processing

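Spread between animals limits these comparisons. Low genes (SOD3 and GPX3 in hippocampus, NQO1) moved most, and for them the spread includes counting error. The cause of the changes below was not tested. Of 166 counts of called enzymes under other settings 153 were equal to or within 1.5 times the count reported. With only the groups compared in the fit, 1 enzyme (NQO1) was called in lung between 4 h and 5 d after the clinical drug. Leaving out single animals gave 0 to 1 in each of the 3 lung comparisons of the 4 h group. In hippocampus after the clinical drug the count of 1 became 0 under RLE and DESeq2, 2 under Storey (SOD1 and GPX3), 3 with run as a block (SOD1, SOD3 and CAT), 3 with the same block in runs that held every group, 0 with run as a block and without control animal 5, and 0 to 1 on leaving out single animals. Of 850 enzyme fold changes 779 kept direction and call, 7 lost the call, 10 gained it and 54 turned in direction, none of them a called value. Of 574 for called pathway genes 467 kept theirs, 106 lost the call and 1 turned. No paired analysis was possible between treatments because each animal received a single treatment and replicate numbers only follow accession order. The 9 animals with both tissues were paired only for the correlations between tissues.

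Without control animal 5 and with run as a block, hippocampus log2 fold changes turned for GPX3 (0.36 clinical, 0.81 Beta-Ac), GCLC (0.082 Beta-Ac), HMOX1 (-0.12 and -0.27) and CP (0.081 clinical). HMOX1 also turned with run as a block (-0.10 and -0.25) and in the runs holding every group (-0.078 and -0.23). With only the animals that had a lung library, GPX3 (0.14 and 0.36), NQO1 (0.30 and 0.29) and GCLC (0.11 Beta-Ac) turned.

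On leaving out single animals, lung fold changes at 4 h after the clinical drug ran from -0.00113 to 0.16 for SOD1, -0.020 to 0.18 for GCLC and -0.045 to 0.13 for HMOX1. At 6 h after Beta-Ac they ran from -0.10 to 0.018 for SOD1, -0.50 to 0.25 for SOD3, -0.0051 to 0.25 for CAT, -0.15 to 0.22 for GCLC, -0.19 to 0.98 for NQO1 and -0.21 to 0.038 for HMOX1. At 5 d after the clinical drug they ran from -0.32 to 0.60 for SOD3, -0.073 to 0.21 for CAT, -0.014 to 0.079 for TXNRD1, -0.066 to 0.018 for GCLC, -0.087 to 1.07 for NQO1 and -0.22 to 0.28 for HMOX1. At 5 d after Beta-Ac they ran from -0.12 to 0.0084 for SOD1, -0.090 to 0.046 for GCLC, -0.68 to 0.49 for NQO1 and -0.036 to 0.49 for HMOX1. In hippocampus they ran after the clinical drug from -2.37 to 0.79 for SOD3 and -0.32 to 0.44 for NQO1. After Beta-Ac they ran from -2.04 to 0.95 for SOD3, -0.36 to 0.021 for CAT, -0.97 to 0.31 for GPX3, -0.19 to 0.036 for GCLC, -0.93 to 0.19 for NQO1 and -0.093 to 0.26 for HMOX1.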
